A study of Mus musculus with 6 samples.

Results

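The genes described here are 41 members of the machinery that copies and divides chromosomes, 18 of DNA replication and 23 of mitosis, out of 31053 genes measured by droplet single-cell RNA sequencing in mouse embryonic stem cells (ESC). They were chosen by symbol from the known roles of their products, and all 41 were found in all 6 libraries. The series compared cells of a conditional knockout of Oct1, labelled Oct1_cKO and written cKO here, with parental cells. Oct1 is a widely expressed POU-domain transcription factor, and its gene is Pou2f1. Each genotype was profiled as undifferentiated ESC, at day 3 and at day 6 of a differentiation towards mesoderm, with 1 library in each of the 6 groups. To differentiate them, ESC of both genotypes went onto 0.1% gelatin and were given Bmp4, a TGF-beta family growth factor, in N2B27 medium for 2 days. For the next 4 days the medium was DMEM-based, with the Wnt agonist Rspo3 and the BMP receptor inhibitor LDN-193189, and trypsin was used at harvest. A 5′ kit of 10x Genomics was used for the libraries, in which each UMI (unique molecular identifier) stands for 1 captured transcript read from its 5′ end. By the title of the series, the study asks how Oct1 acts with Smad transcription factors in the specification of mesoderm.

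Before a cell divides it loads the MCM helicase at replication origins, fires those origins in S phase, and copies its DNA with polymerases that run on the PCNA clamp. In mitosis, cyclin-dependent kinase 1 with cyclin B condenses the chromosomes and builds the spindle, the kinetochores tie chromosomes to it, and the anaphase-promoting complex then releases them before the cell is cut apart. Most of these genes are transcribed in 1 part of the cell cycle: those of replication from late G1 under E2F factors, and those of mitosis in G2 under the DREAM complex, B-Myb and FoxM1. Undifferentiated mouse ESC have a short G1 and divide fast, and many of their derivatives slow their cycle as they differentiate.

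Both schedules are tied in textbooks to short promoter motifs, so promoters of the members are shown first. The 3 members of each list that differed most between the genotypes at day 6, among those found in the RefSeq promoter table of GRCm38.p6, are printed from 250 bases before the transcript start to 50 bases after it. Capitals mark TTTGAA (the CHR element bound by DREAM), CCAAT (bound by NF-Y), and TTCCCGC or TTGGCGC (E2F-like), each on either strand. Where matches overlap, as an E2F-like pair does in Mcm3, all their bases are capitals. The first is Chaf1b, a chromatin assembly subunit (chr16:93883651-93883950, plus strand).
Chaf1b: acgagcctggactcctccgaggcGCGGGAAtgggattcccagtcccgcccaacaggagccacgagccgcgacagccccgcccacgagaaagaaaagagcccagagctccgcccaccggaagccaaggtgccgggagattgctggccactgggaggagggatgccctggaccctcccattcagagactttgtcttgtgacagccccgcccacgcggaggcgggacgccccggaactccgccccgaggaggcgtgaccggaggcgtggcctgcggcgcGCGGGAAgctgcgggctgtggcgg
Mcm3 encodes a subunit of the helicase (chr1:20820263-20820562, minus strand).
Mcm3: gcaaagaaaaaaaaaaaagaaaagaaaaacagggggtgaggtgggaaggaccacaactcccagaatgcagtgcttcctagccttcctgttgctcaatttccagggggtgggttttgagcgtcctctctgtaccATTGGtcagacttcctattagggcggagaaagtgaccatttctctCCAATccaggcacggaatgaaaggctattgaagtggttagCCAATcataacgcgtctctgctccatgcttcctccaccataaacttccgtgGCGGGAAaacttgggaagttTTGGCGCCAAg
Cdc45 encodes the factor that activates that helicase (chr16:18811923-18812222, minus strand).
Cdc45: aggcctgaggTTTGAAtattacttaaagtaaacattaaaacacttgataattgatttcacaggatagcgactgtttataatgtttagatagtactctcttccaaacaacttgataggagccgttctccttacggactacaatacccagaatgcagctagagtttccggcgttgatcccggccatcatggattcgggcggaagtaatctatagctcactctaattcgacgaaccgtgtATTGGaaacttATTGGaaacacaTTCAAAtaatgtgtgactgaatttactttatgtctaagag
Cenpf encodes a large kinetochore protein (chr1:189688037-189688336, minus strand).
Cenpf: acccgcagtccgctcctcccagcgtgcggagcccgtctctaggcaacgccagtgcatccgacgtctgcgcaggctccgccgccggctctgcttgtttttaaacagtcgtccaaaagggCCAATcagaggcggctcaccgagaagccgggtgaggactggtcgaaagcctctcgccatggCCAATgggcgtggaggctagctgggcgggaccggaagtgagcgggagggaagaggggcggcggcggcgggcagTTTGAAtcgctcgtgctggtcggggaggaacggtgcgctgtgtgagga
Top2a encodes the topoisomerase that untangles chromosomes (chr11:99024140-99024439, minus strand).
Top2a: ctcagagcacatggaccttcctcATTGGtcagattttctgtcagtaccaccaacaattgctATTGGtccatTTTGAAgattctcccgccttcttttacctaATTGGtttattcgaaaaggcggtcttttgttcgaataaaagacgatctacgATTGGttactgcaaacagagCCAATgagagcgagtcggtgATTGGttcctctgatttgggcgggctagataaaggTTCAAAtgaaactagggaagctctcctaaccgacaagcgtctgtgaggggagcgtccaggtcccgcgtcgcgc
Ccnb2 encodes a B-type cyclin (chr9:70421505-70421804, minus strand).
Ccnb2: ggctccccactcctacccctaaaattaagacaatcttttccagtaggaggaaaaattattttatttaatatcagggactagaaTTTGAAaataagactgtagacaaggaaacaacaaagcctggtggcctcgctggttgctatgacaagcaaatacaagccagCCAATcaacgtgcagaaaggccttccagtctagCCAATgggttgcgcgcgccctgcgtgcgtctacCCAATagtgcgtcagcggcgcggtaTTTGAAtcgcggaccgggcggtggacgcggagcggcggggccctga

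TTTGAA was found in the promoters of 15 of 20 mitotic members with an entry in the table and of 2 of 16 replication members, against 20.2% of the 27025 genes in the table. Its copy in Cenpf began 3 bases past the start. Of the 2 copies in Ccnb2, 1 began 5 bases past the start and the other 167 bases before it. The 2 in Top2a began 179 and 23 bases before the start. CCAAT was in the promoters of 17 of 20 mitotic members and 11 of 16 replication members, against 41.1% of all genes in the table. E2F-like letters were in those of 4 of 20 mitotic and 8 of 16 replication members, against 7.79% of all genes. Of the 3 replication promoters printed, those of Chaf1b and Mcm3 hold E2F-like letters and that of Cdc45 holds TTTGAA and CCAAT instead. A match of letters is not a binding site, and a promoter without one holds other sequence that was not searched.

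After barcodes with fewer than 1000 genes or over 10% mitochondrial UMIs were left out, 7096 of 11046 barcodes were kept as cells. They numbered 530 cKO and 1396 parental ESC, 1026 cKO and 948 parental cells at day 3, and 1650 cKO and 1546 parental cells at day 6. The libraries held 38935937 to 84128627 UMIs after this filter, and over 15 pairs of libraries 9 cell barcodes were shared. Pou2f1 itself (chromosome 1) measured 21.5, 12.6 and 16.0 CPM (UMIs of a gene per 1000000 UMIs) in cKO cells at the ESC stage, day 3 and day 6, against 30.1, 28.3 and 30.9 CPM in parental cells. The labels do not say which part of the gene was deleted, or when and how, so a read from its 5′ end may count transcripts that make no protein. All 10 pluripotency markers were at 5 CPM or more in both ESC libraries. The parental ESC library also held a cluster of 124 fibroblast-like cells that carried all 12 fibroblast markers, of which the cKO library had 3. Titles of ESC libraries begin with another number than those of both later stages, which the labels do not explain, so the step from ESC to day 3 crosses that difference.

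Levels are UMIs summed over the cells of a library and given as CPM, and differences are log2 ratios of 2 libraries. With 1 library per group no test within a stage could be made, and a fit that takes the stages as replicates of a genotype was not run. Every 95% interval given in brackets covers counting error alone. A gene was compared when the higher library had at least 5 CPM, which all 41 members passed in every comparison, and it was called different at 1.5-fold or more, a log2 ratio of 0.58. Because a library is summed over unlike cells, fewer dividing cells and less RNA per dividing cell cannot be told apart in these sums. Mcm7, Gins2, Cdc45, Ccna2, Cdc20, Nusap1, Ube2c and Prc1 overlap a gene on the opposite strand, and whether the counting used strand is not given in the sources used here, so their values are less certain.

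In ESC and at day 3 every member was within 1.5-fold between the genotypes, and at day 6 both lists were lower in cKO cells. Summed over the 18 replication members, the level was 1909.5, 2038 and 1173 CPM in cKO cells at the ESC stage, day 3 and day 6, against 1942, 2368 and 1877 CPM in parental cells. Summed over the 23 mitotic members, it was 2923, 3317 and 2409.8 CPM in cKO cells, against 3051, 3383 and 3759 CPM in parental cells. The lowest of the 6 libraries was day 6 cKO for both sums. The highest was day 3 parental for replication and day 6 parental for mitosis. The log2 ratio of the day 6 sums was −0.68 (−0.69 to −0.66) for replication and −0.64 (−0.65 to −0.63) for mitosis.

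**Figure D1:**
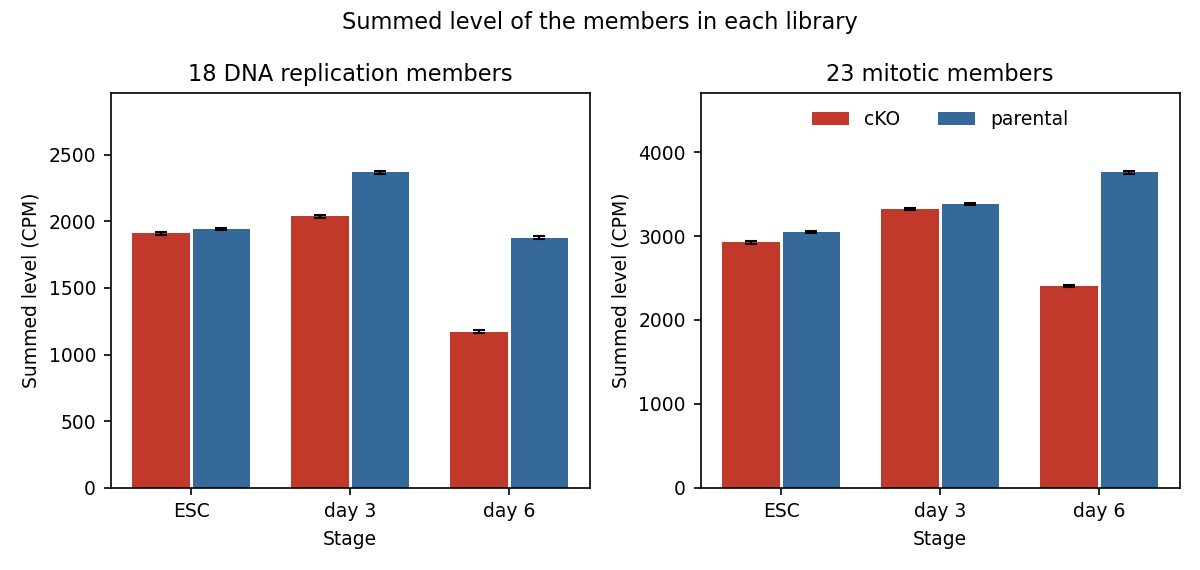
Summed level of the 18 DNA replication members (left) and the 23 mitotic members (right) in each library, in CPM on the vertical axis, by stage, with cKO left of parental. Error bars are exact Poisson 95% intervals, which cover counting error only. Bars differ most at day 6, at 1173 CPM in cKO against 1877 CPM in parental cells for replication and 2409.8 CPM in cKO against 3759 CPM in parental cells for mitosis.

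At the ESC stage, 0 of 18 replication members and 0 of 23 mitotic members were called, whereas 4.73% of the 9224 genes compared were called higher and 5.67% lower in cKO cells. The median log2 ratio was −0.04 over replication members and 0.11 over mitotic members, beside −0.01 over all genes. Ccne1, cyclin E1, which drives entry into S phase, measured 60.2 CPM in cKO ESC and 90.1 CPM in parental ESC. Its ratio of −0.58 (−0.65 to −0.52) lay just inside the limit and was the lowest of the 41. Pcna, the sliding clamp, measured 154 CPM in cKO ESC and 112 CPM in parental ESC, the highest ratio of the 41 at 0.45 (0.41 to 0.50). Among mitotic members, Top2a had 312 CPM in cKO ESC and 400.1 CPM in parental ESC (−0.36; −0.39 to −0.33). Birc5, survivin of the chromosomal passenger complex, had 273 CPM in cKO ESC and 349 CPM in parental ESC (−0.35; −0.39 to −0.32). Top2a, Birc5 and Hmmr, the 3 lowest mitotic members here, all lie on chromosome 11, whose 749 compared genes had a median of −0.27. The highest were Ect2, a cytokinesis activator, at 61.2 CPM in cKO ESC and 51.5 CPM in parental ESC (0.25; 0.17 to 0.32), and Aurka, a spindle pole kinase, at 78.5 CPM in cKO ESC and 66.4 CPM in parental ESC (0.24; 0.18 to 0.31). The 124 fibroblast-like parental cells had summed levels of 395 CPM for replication and 402 CPM for mitosis. With the fibroblast-like clusters left out, the ratios of 38 members moved outside the set bounds and those of 3 stayed within them. Ccne1 then passed the limit (−0.67) and was the 1 member called. Stricter barcodes (2000 genes and 5% mitochondrial UMIs) left 86 cKO and 457 parental ESC. With them 1 replication and 6 mitotic members were called, beside 962 genes called higher and 619 lower of 9165 compared. The medians were −0.24 for replication and −0.28 for mitosis, beside −0.001 over all genes, so the ESC values turn with this filter.

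At day 3, again 0 of 18 replication and 0 of 23 mitotic members were called, beside 1.42% of the 8917 genes compared called higher and 3.38% lower in cKO cells. Scaled by TMM factors in place of library totals, the calls over all genes were 194 higher and 173 lower, against 127 higher and 301 lower with totals. The median ratio was −0.22 over replication members, 0.04 over mitotic members and −0.06 over all genes. With TMM factors the median over all genes was 0.04 and that of the mitotic members 0.14. Mcm6, an MCM subunit, had 124 CPM in cKO cells and 175 CPM in parental cells (−0.49; −0.53 to −0.46). Cdc6, which loads the helicase at origins, had 24.8 CPM in cKO cells and 33.9 CPM in parental cells, a log2 ratio of −0.45 (−0.54 to −0.37). Cdc6 lies on chromosome 11, whose compared genes had a median of −0.21, and its ratio was −0.24 after subtraction of that median. Tyms, thymidylate synthase, went against the list with 149 CPM in cKO cells and 123 CPM in parental cells (0.28; 0.24 to 0.32). The 5 replication members on chromosomes 1, 6 and 8 (Mcm2, Mcm3, Mcm5, Mcm6 and Gins2, a GINS subunit of the active helicase) had ratios of −0.49 to −0.40, and the other 13 members had a median of −0.15. All compared genes of those chromosomes had medians of −0.30, −0.32 and −0.32. After the median of its own chromosome was subtracted, the 5 members lay between −0.19 and −0.08. Cenpf was the only mitotic member on these chromosomes, at 257 CPM in cKO cells and 341 CPM in parental cells (−0.41; −0.43 to −0.38), and −0.11 after the same subtraction. The part of this regional shift in the members' values was not tested further.

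At day 6, 14 of 18 replication members were called lower in cKO cells and 0 higher, beside 15% of the 10065 genes compared called lower and 12.4% higher. Of the 23 mitotic members, 8 were called lower and 0 higher. The median log2 ratio was −0.85 over replication members and −0.56 over mitotic members, beside −0.05 over all genes. All members but Tyms lay below 0, and no member changed sign in any of the 246 values that scaling, cell weighting, barcode filters, doublet removal and chromosome medians gave. Of 132 such values of the 22 called members, 10 fell short of the 1.5-fold limit, in Mcm7, Cdc6, Gins2, Mcm4, Ccna2 and Plk1. At a limit of 2-fold, 1 replication and 3 mitotic members were called, all lower. At that limit 680 of the 10065 genes compared were called lower and 567 higher.

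**Figure D2:**
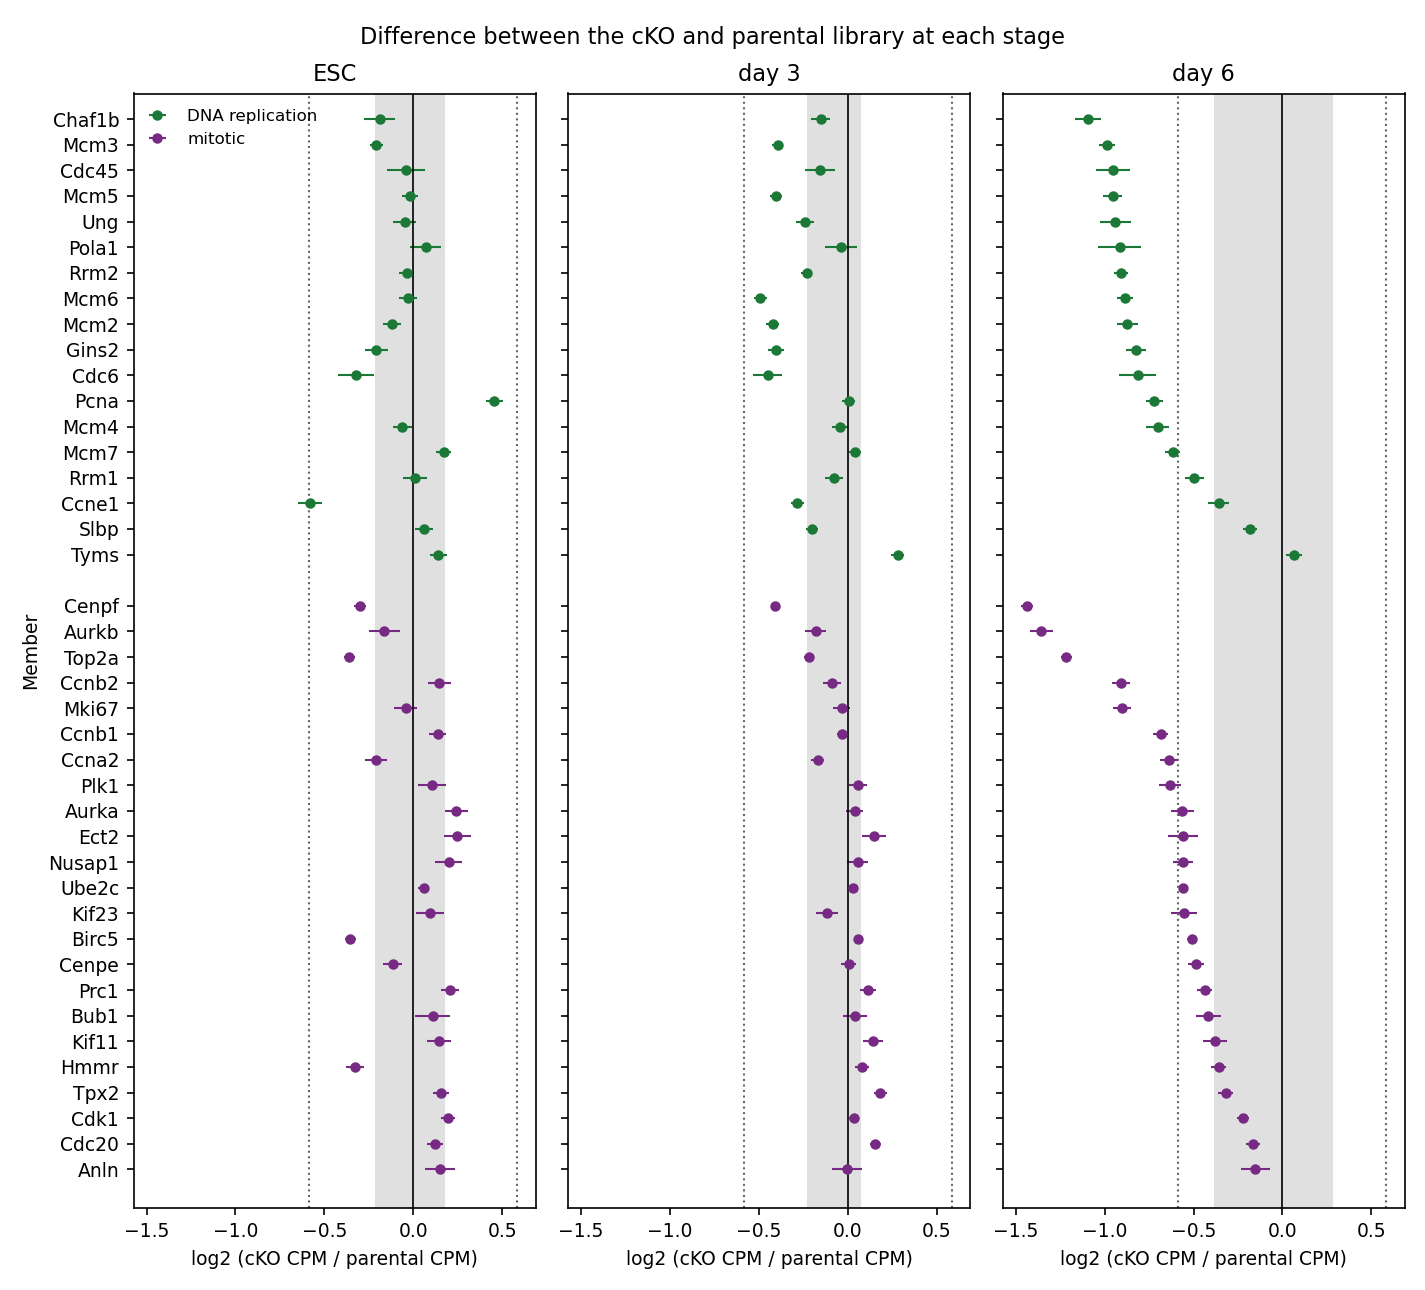
Log2 ratio of cKO over parental CPM (horizontal axis) for each member at the ESC stage, day 3 and day 6, replication members above and mitotic members below, ordered by the day 6 ratio. Bars are 95% counting intervals, dotted lines mark 1.5-fold, and the grey band holds the middle 50% of all genes compared. At day 6 the 14 replication and 8 mitotic members left of the dotted line run down to −1.09 for Chaf1b and −1.44 for Cenpf.

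Within replication, all 6 subunits of the MCM helicase were called lower at day 6, with ratios of −0.99 to −0.62. Mcm3 had 84.2 CPM in cKO cells and 167 CPM in parental cells (−0.99; −1.03 to −0.94). Mcm5 had 60.0 CPM in cKO cells and 116 CPM in parental cells (−0.95; −1.01 to −0.90). Mcm7, the least shifted subunit, had 102 CPM in cKO cells and 156 CPM in parental cells (−0.62; −0.66 to −0.57). The 3 factors that load and fire the helicase followed. Cdc45 had 19.6 CPM in cKO cells and 38.1 CPM in parental cells (−0.96; −1.05 to −0.86), Gins2 62.7 CPM in cKO cells and 111 CPM in parental cells, and Cdc6 17.3 CPM in cKO cells and 30.4 CPM in parental cells. At the fork, Pola1, the catalytic subunit of the primase polymerase, had 12.3 CPM in cKO cells and 23.1 CPM in parental cells (−0.92; −1.04 to −0.79). Pcna had 76.0 CPM in cKO cells and 125 CPM in parental cells (−0.72; −0.77 to −0.67), whereas in ESC it had the highest ratio of the 41. Chaf1b, which places histones on new DNA, had the lowest ratio of the list, at 32.7 CPM in cKO cells and 69.7 CPM in parental cells (−1.09; −1.16 to −1.02).

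The genes of nucleotide supply were not alike. Rrm2, the cycle-dependent subunit of ribonucleotide reductase, had 123 CPM in cKO cells and 232 CPM in parental cells (−0.91; −0.95 to −0.87). Its partner Rrm1, whose protein is more stable, had 68.2 CPM in cKO cells and 96.2 CPM in parental cells (−0.50; −0.55 to −0.44) and was not called. Tyms had 118 CPM in cKO cells and 113 CPM in parental cells (0.07; 0.02 to 0.11). Ung, which removes uracil from DNA, had 24.5 CPM in cKO cells and 47.1 CPM in parental cells (−0.94; −1.03 to −0.85). Slbp, which binds the stem-loop of histone mRNA, had 130.0 CPM in cKO cells and 148 CPM in parental cells (−0.18; −0.22 to −0.14). Ccne1 had 57.5 CPM in cKO cells and 73.7 CPM in parental cells (−0.36; −0.42 to −0.30). Tyms, Slbp, Ccne1 and Rrm1 were therefore the 4 replication members not called, and the 14 others ran from −1.09 to −0.62.

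Within mitosis, the lowest ratios were those of Cenpf, Aurkb and Top2a. Cenpf had 137 CPM in cKO cells and 372 CPM in parental cells (−1.44; −1.47 to −1.40). Aurkb, the kinase of the chromosomal passenger complex, had 40.4 CPM in cKO cells and 104 CPM in parental cells (−1.36; −1.42 to −1.29). Top2a had 174 CPM in cKO cells and 405 CPM in parental cells (−1.22; −1.25 to −1.19). These 3 were the mitotic members past 2-fold. Aurkb and Top2a lie on chromosome 11 and Cenpf on chromosome 1, whose compared genes had medians of −0.32 and −0.16. After subtraction of those medians the ratios of the 3 genes were −1.03, −0.90 and −1.28. Mki67, which coats mitotic chromosomes and is used as a mark of cycling cells, had 70.1 CPM in cKO cells and 131 CPM in parental cells (−0.90; −0.95 to −0.85).

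The mitotic cyclins were called lower while the level of their kinase differed less. Ccnb2 had 70.7 CPM in cKO cells and 132 CPM in parental cells (−0.91; −0.96 to −0.86), and Ccnb1, the other B-type cyclin, 109.8 CPM in cKO cells and 177 CPM in parental cells (−0.69; −0.73 to −0.64). Ccna2, cyclin A2, had 73.2 CPM in cKO cells and 114 CPM in parental cells (−0.64; −0.69 to −0.59). Cdk1 had 212 CPM in cKO cells and 247 CPM in parental cells (−0.22; −0.25 to −0.19). Plk1, a kinase of mitotic entry, was the last of the 8 called members, with 48.3 CPM in cKO cells and 74.9 CPM in parental cells (−0.63; −0.69 to −0.57). Of its fellow kinases and checkpoint genes, Aurka, Birc5 and Bub1, a spindle checkpoint kinase, had ratios of −0.56, −0.51 and −0.42.

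The 4 spindle members (Tpx2, Nusap1, Kif11 and Hmmr) had ratios of −0.56 to −0.32, and the 4 of cytokinesis (Kif23, Ect2, Anln and Prc1) of −0.56 to −0.15, with none called. Anln, the contractile ring scaffold anillin, had the mildest ratio of the mitotic list, at 34.2 CPM in cKO cells and 38.1 CPM in parental cells (−0.15; −0.23 to −0.07). The pair that drives the anaphase-promoting complex was split: its activator Cdc20 had 163 CPM in cKO cells and 182 CPM in parental cells (−0.17; −0.20 to −0.13), and its ubiquitin-conjugating enzyme Ube2c had 291 CPM in cKO cells and 428 CPM in parental cells (−0.56; −0.58 to −0.53). Ect2, Nusap1, Aurka, Ube2c and Kif23, at −0.56 to −0.55, lay just inside the limit of 0.58, and Mcm7, Plk1 and Ccna2, at −0.64 to −0.62, just past it. By promoter letters, the mitotic members with TTTGAA had a median day 6 ratio of −0.56 (15 genes, −1.44 to −0.15) and those without of −0.51 (5 genes, −0.69 to −0.42). The replication members with E2F-like letters had a median of −0.90 (8 genes, −1.09 to −0.50) and those without of −0.80 (8 genes, −0.96 to 0.07).

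Other genes of the same pathways were counted next, against the 15% of all genes called lower at day 6. Of 26 genes of polymerases, clamp loader and fork, 19 were called lower at day 6 and 0 higher, with a median ratio of −0.76. Asf1b, a histone chaperone, had 18.4 CPM in cKO cells and 55.9 CPM in parental cells, and Pold2, a subunit of the replicative polymerase delta, had 16.9 CPM in cKO cells and 52.2 CPM in parental cells. Of the origin genes compared, 7 of 20 were called lower (median −0.43), and of nucleotide supply 3 of 15 (median −0.34). Among mitotic pathways, 12 of 28 kinetochore and checkpoint genes (median −0.55), 12 of 22 spindle and cytokinesis genes (median −0.62), 5 of 19 genes of mitotic entry and exit (median −0.35) and 4 of 17 condensin and cohesin genes (median −0.43) were called lower, and 0 of them higher. The other genes compared in these lists were within 1.5-fold. Cdc25b, the phosphatase that starts Cdk1 activity, had the lowest ratio of these lists, at 3.63 CPM in cKO cells and 15.8 CPM in parental cells (−2.12; −2.32 to −1.92).

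Regulators of both programmes were counted against the same shares of all genes at day 6, 15% lower and 12.4% higher. Of the 14 E2F, pocket protein and G1/S genes compared, 4 were called lower and 0 higher. E2f1, an activating E2F, had 12.7 CPM in cKO cells and 27.2 CPM in parental cells (−1.10; −1.22 to −0.99). Of 9 DREAM and FoxM1 genes compared, 3 were called lower and 0 higher, among them Foxm1, with 11.7 CPM in cKO cells and 22.9 CPM in parental cells (−0.96; −1.09 to −0.84). Of 7 inhibitors of cyclin-dependent kinases compared, 3 were called higher and 1 lower. Cdkn1a, the inhibitor p21, had 372 CPM in cKO cells and 139 CPM in parental cells (1.42; 1.39 to 1.45), and Cdkn2b, the inhibitor p15, had 43.7 CPM in cKO cells and 16.4 CPM in parental cells (1.42; 1.32 to 1.52). Cdkn2a was higher at 172 CPM in cKO cells and 82.5 CPM in parental cells. Cdkn1c, the inhibitor p57, had 112 CPM in cKO cells and 276 CPM in parental cells (−1.30; −1.34 to −1.26) and was the 1 called lower.

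Along the parental series, the step from ESC to day 3 had 2 of 18 replication members called higher and 1 lower, with 18.1% of all genes called higher and 18.5% lower. Ccne1 was one of the 2 higher ones, at 160.5 CPM at day 3 and 90.1 CPM in ESC, and Chaf1b the other, at 72.9 CPM at day 3 and 44.1 CPM in ESC. Pola1 was the lower one, at 26.4 CPM at day 3 and 39.6 CPM in ESC. Of the mitotic members 3 were called higher (Ccna2, Cdc20 and Ccnb1) and 0 lower. In cKO cells the same step had 2 replication members called higher and 1 lower, and 2 mitotic members higher and 1 lower with a mitotic median of 0.09, beside 19.4% of all genes called higher and 22.5% lower. With stricter barcodes 8 mitotic members were called in that cKO step, and their list's median was 0.49. Over the 9474 genes compared with that filter, 1819 were called higher and 2258 lower, with a median of −0.02. In cKO cells Ccne1 had 132 CPM at day 3 and 60.2 CPM in ESC, and Pola1 had 25.7 CPM at day 3 and 41.6 CPM in ESC.

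From day 3 to day 6 the genotypes differed most. The median over all genes compared in this step was 0.22 in parental and 0.26 in cKO cells with library totals, and −0.03 in both with TMM factors, and ratios of the step are read here against those medians. In cKO cells 11 of 18 replication members were called lower and 0 higher, with a median of −0.87. Beside them, 16.1% of all genes were called lower and 36.6% higher. Past 2-fold were 8 of the 18 members, all lower, and of the 9835 genes compared 759 lower and 2266 higher. In parental cells 5 of 18 were called lower and 0 higher, with a median of −0.17, beside 11.9% of all genes called lower and 32.1% higher. With TMM factors the calls over all genes were 2580 higher and 2543 lower in cKO cells, against 3595 and 1587 with totals, and 2225 higher and 1931 lower in parental cells, against 3225 and 1197. Ung had 24.5 CPM at day 6 and 72.2 CPM at day 3 in cKO cells, and 47.1 CPM at day 6 and 85.3 CPM at day 3 in parental cells. Mcm2, Mcm3, Mcm5 and Ccne1 were, with Ung, the 5 called lower in parental cells.

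Over the same step, 9 of 23 mitotic members were called lower and 0 higher in cKO cells, beside 16.1% of all genes called lower and 36.6% higher. In parental cells 4 were called higher and 0 lower, beside 32.1% of all genes called higher and 11.9% lower. The median of the mitotic list was −0.42 in cKO cells and 0.16 in parental cells with totals, where all genes had 0.26 and 0.22. The mitotic median was −0.69 in cKO cells and −0.067 in parental cells with TMM factors, so its sign in parental cells turned with the scaling. The 4 members called higher in parental cells were Aurkb, Ccnb2, Prc1 and Nusap1. With TMM factors 14 mitotic and 16 replication members were called lower in cKO cells. In parental cells none of the 4 was called with those factors, and Ccna2 was called lower (−0.62). Aurkb had 40.4 CPM at day 6 and 54.1 CPM at day 3 in cKO cells, and 104 CPM at day 6 and 61.3 CPM at day 3 in parental cells. Prc1, which bundles microtubules of the spindle midzone, had 121 CPM at day 6 and 108 CPM at day 3 in cKO cells, and 164 CPM at day 6 and 99.7 CPM at day 3 in parental cells. Each of these steps compares single libraries, and the difference between the genotypes' steps has no test.

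To see whether the sums reflected all cells or some of them, each cell was thinned to 10000 UMIs, and shallower cells were left out (558 cKO and 371 parental cells at day 6, 34 to 140 in the other libraries). The median cell at day 6 then held 9 UMIs of replication members in cKO and 17 in parental cells, and 12 UMIs of mitotic members in cKO and 24 in parental cells. At day 3 the medians were 20 in cKO and 23 in parental cells for replication, and 28 in cKO and 30 in parental cells for mitosis. In ESC they were 18 in cKO and 20 in parental cells for replication, and 21 in cKO and 25 in parental cells for mitosis. Thinning to 5000 or 20000 UMIs gave day 6 medians, per 10000 UMIs, of 9.5 to 10 in cKO and 16 to 17.5 in parental cells for replication and of 12 to 12.5 in cKO and 24 to 25.5 in parental cells for mitosis.

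Cells with at most 5 mitotic UMIs, a range chosen after the data were seen, made up 40.2% of the day 6 cKO cells (37.3 to 43.2, exact binomial interval) and 18.3% of the day 6 parental cells (16.1 to 20.6). In ESC the share was 11.9% in cKO and 9.87% in parental cells, and at day 3 it was 7.76% in cKO and 5.43% in parental cells. In the parental ESC library 87 of the 124 cells in this range were of the fibroblast-like cluster, and without that cluster the shares were 11.7% in cKO and 3.20% in parental ESC. A cluster led by Krt18, H19 and Krt8 held 43 of the 57 cKO ESC in this range and 12 of the 124 parental ones. It made up 30.6% of the cKO and 6.95% of the parental ESC library. For scale, 86.1% of the 101 thinned fibroblast-like cells held at most 5 mitotic UMIs, and their median was 1. The range is a limit on counts and was not used to name a cell type. At its edge, 52 of the 1092 cKO cells and 37 of the 1175 parental cells at day 6 held exactly 5 or 6 mitotic UMIs. At the upper end the genotypes also differed at day 6, with 54 mitotic UMIs in cKO and 76.6 in parental cells at the 90th percentile. In cells above the range, the summed level at day 6 was 3527 CPM in cKO and 4260 CPM in parental cells for mitosis (log2 ratio −0.27), and 1464 CPM in cKO and 2016 CPM in parental cells for replication (−0.46). The mitotic level in these cells is a description, since mitotic UMIs also chose them.

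**Figure D3:**
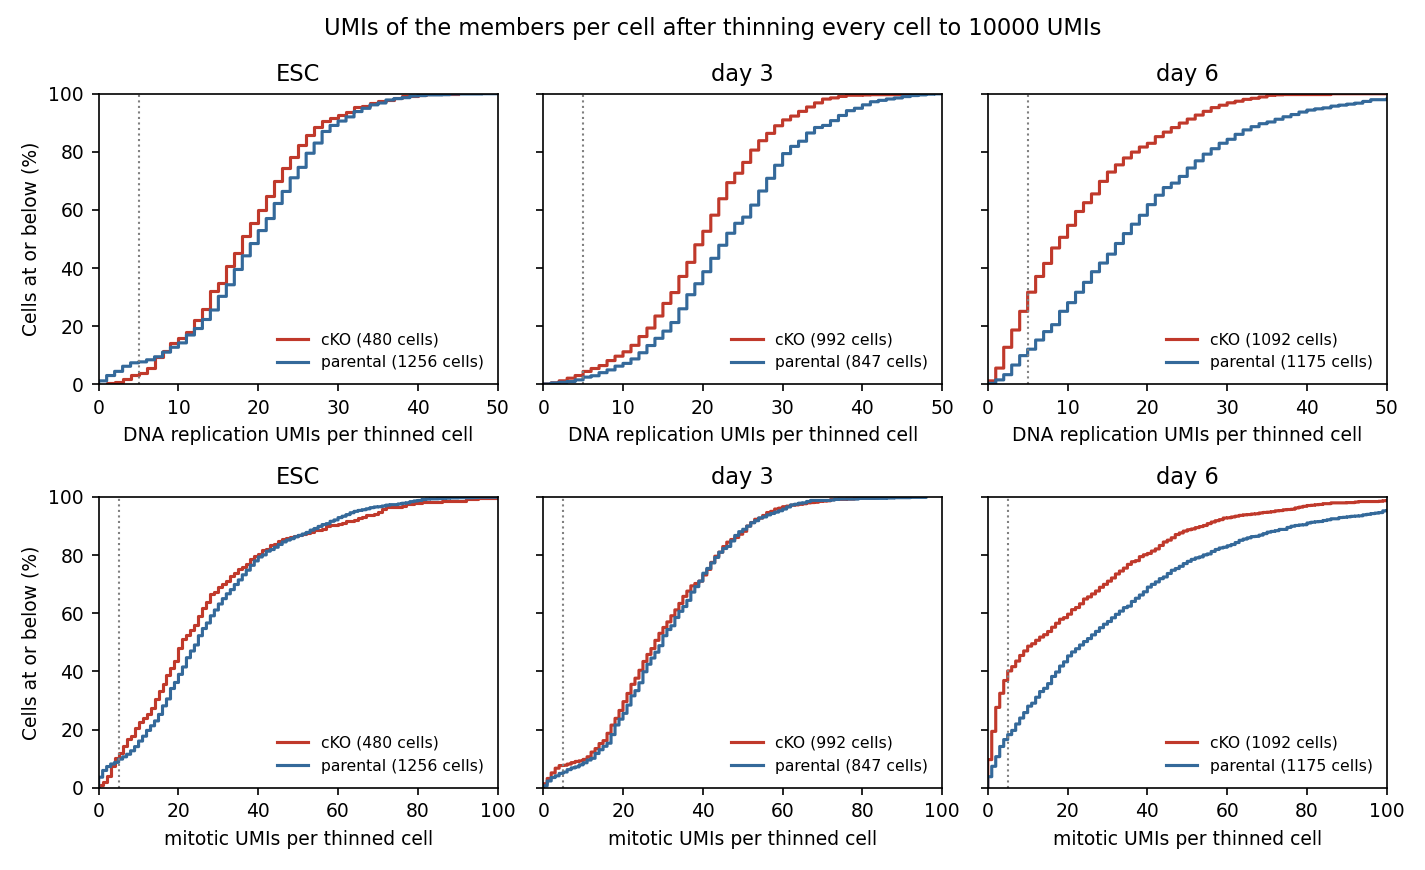
Cumulative share of cells (vertical axis, percent) by the number of UMIs of replication members (upper row) or mitotic members (lower row) they held after thinning to 10000 UMIs, for cKO and parental cells at each stage. The dotted line marks 5 UMIs. At day 6 the cKO curve for mitotic members stands at 40.2% at that line and the parental curve at 18.3%, whereas the day 3 curves stand at 7.76% for cKO and 5.43% for parental cells.

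Cells low in both lists, with at most 5 UMIs of each, made up 25.4% of cKO cells (22.8 to 28.1) and 9.11% of parental cells (7.52 to 10.9) at day 6. In the other 4 libraries they were 2.01% to 6.93%. Across the thinned cells of a library, the 2 sums had a Spearman correlation of 0.52 in day 6 cKO cells and 0.16 in day 6 parental cells, and between −0.02 and 0.10 in the other 4 libraries. On average over the 6 libraries, each member followed its own list more than the other one, though Rrm1 hardly did (0.199 and 0.194). In at least 1 library Tyms followed the mitotic sum more. Its highest correlation was 0.43 with that sum and 0.38 with the rest of its own list. The mean Spearman correlation over pairs of members was 0.17 to 0.41 within mitosis, 0.09 to 0.21 within replication and 0.01 to 0.13 between the lists over the 6 libraries. These are descriptions across cells of equal depth, in which members of a list also share the cell's place in the cycle. The member closest to the sum of the rest of its list was Ube2c in mitosis (mean of 0.72 over the libraries) and Mcm3 in replication (0.44). The least close were Bub1 (0.25) and Pola1 (0.14), both of low level. Ung was the 1 member with a negative correlation with the other list in all 6 libraries (−0.19 to −0.02).

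**Figure D4:**
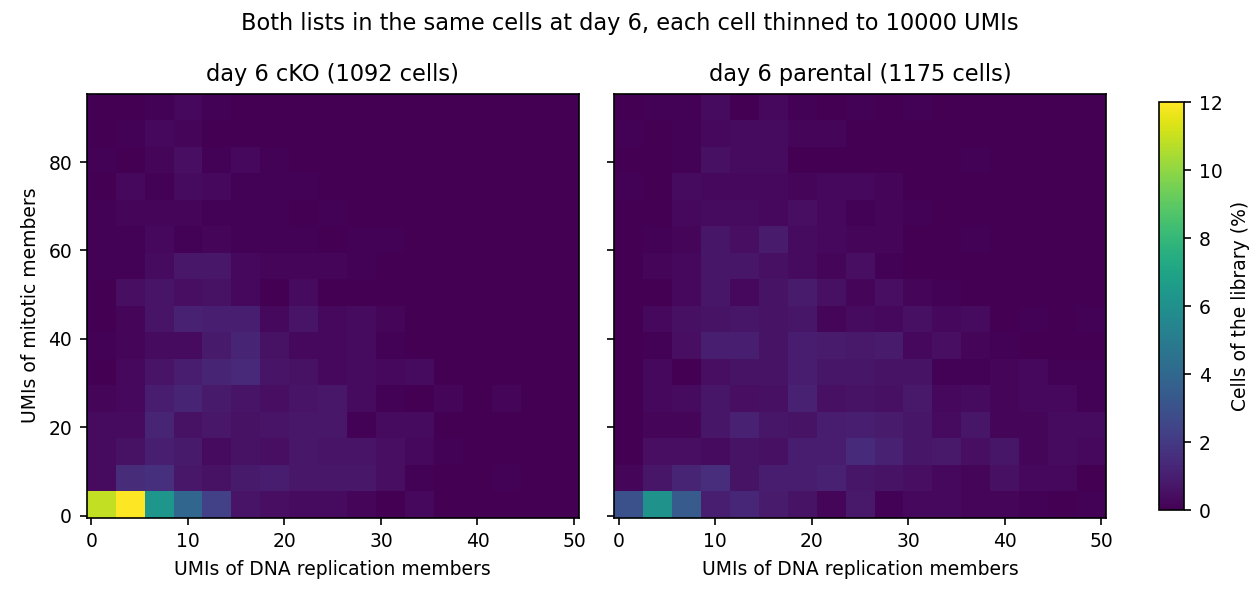
Share of day 6 cells (colour, percent of the library) by UMIs of replication members (horizontal axis) and mitotic members (vertical axis) after thinning to 10000 UMIs, cKO left and parental right. The cells in the lower left corner, with at most 5 UMIs of each list, made up 25.4% of cKO and 9.11% of parental cells. Cells beyond the ends of the axes are not drawn.

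Of 3900 genes outside the list that were ranked, those with the closest mean correlation with the replication sum were Nasp (0.50), which chaperones linker histones, Ptma (0.48), Ncl (0.46), nucleolin, Dut (0.45), which removes dUTP, the histone genes Hist1h1b (0.44) and Hist1h2ap (0.43), Pclaf (0.43), a PCNA-binding factor, and Hmgb2 (0.42). Those closest to the mitotic sum were Cks2 (0.59), which binds Cdk1, Cenpa (0.52), the centromeric histone, Tubb4b (0.52), a tubulin, Ube2s (0.50), which extends ubiquitin chains, Cdca8 (0.50) and Incenp (0.47) of the passenger complex, Hmgb2 (0.49) and Smc4 (0.47) of condensin. Hmgb2, a chromatin protein, stood in both sets.

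Day 6 cells of the 2 genotypes differed in kind as well as in number of low cells. Markers of epithelium summed to 5991 CPM in cKO and 2325 CPM in parental cells, with 10 of 11 at 5 CPM or more in cKO and 8 of 11 in parental cells. Markers of neural progenitors summed to 36.4 CPM in cKO and 415 CPM in parental cells, with 2 of 9 at 5 CPM or more in cKO and 7 of 9 in parental cells. Neuron markers summed to 268 CPM in cKO and 468 CPM in parental cells, with 2 of 11 at 5 CPM or more in cKO and 9 of 11 in parental cells. No marker of these 3 lists was at 0 in either library. Markers of somite mesoderm summed to 188 CPM in cKO and 301 CPM in parental cells. Those of mesenchyme or smooth muscle summed to 1054 CPM in cKO and 2085 CPM in parental cells, and those of pluripotency to 123 CPM and 371 CPM. Fibroblast and blood markers also summed lower in cKO cells, and those of primed epiblast, primitive streak and axial cells higher. The members were therefore compared within clusters of day 6 cells, built without the members and the pathway genes. Other genes that followed the sums across cells, such as Hist1h1b and Hmgb2, were not left out. Clusters may therefore also part cells by cycle state, which was not tested. With a finer clustering (resolution 1.2) the cKO mitotic level was 4356 CPM in cluster 1 and 559 CPM in cluster 7. Clusters at the main resolution of 0.8 are called by number, and 7 of them held at least 20 cells of each library.

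In all 7 the summed mitotic level was lower in cKO cells, by log2 ratios of −1.33 to −0.25 with a median of −0.56. The summed replication level was lower in 5 of the 7, with ratios of −0.62 to 0.24 and a median of −0.16, where the whole libraries gave −0.68. At a finer clustering resolution the mitotic level was lower in 9 of 9 clusters and the replication level in 6 of 9. Clusters below the minimum of cells were not counted, and some went the other way. At the finer resolution the mitotic level was 559 CPM in 142 cKO cells and 172 CPM in 10 parental cells of cluster 7. In cluster 14 there it was 4487 CPM in 11 cKO and 3866 CPM in 95 parental cells. Cluster 10 of the main resolution had 4487 CPM in 11 cKO and 3856 CPM in 94 parental cells. Other uncounted clusters with cells of both libraries had a lower mitotic level in cKO. In cluster 1, epithelium-like and the largest in cKO (576 cKO and 112 parental cells), the mitotic level was 2508 CPM in cKO and 3694 CPM in parental cells, and the replication level was 1054 CPM in cKO and 1176 CPM in parental cells. In cluster 6, somite-like (154 cKO and 191 parental cells), the mitotic level was 2752 CPM in cKO and 4068 CPM in parental cells and the replication level 1642 CPM in cKO and 1749 CPM in parental cells. In cluster 7, led by Pomc, Car3, T and Shh (78 cKO and 28 parental cells), the mitotic level was 1439 CPM in cKO and 3626 CPM in parental cells and the replication level 1165 CPM in cKO and 1793 CPM in parental cells. Cluster 2, led by Actc1 and Acta2 (150 cKO and 166 parental cells), had the mildest mitotic difference, at 2397 CPM in cKO and 2859 CPM in parental cells. It was 1 of the 2 where replication was higher, at 1663 CPM in cKO and 1405 CPM in parental cells. Its cells were shallow, with medians of 5822 UMIs in cKO and 5157 UMIs in parental cells, as were those of cluster 4, with 4907 UMIs in cKO and 4088 UMIs in parental cells.

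Among thinned cells, those with at most 5 mitotic UMIs were 43.2% of cKO and 34.5% of parental cells in cluster 1, 16.9% of cKO and 9.09% of parental cells in cluster 6, and 54.7% of cKO and 13.0% of parental cells in cluster 7. In cluster 2 they were 2 of 35 cKO cells (5.71%) and 2 of 36 parental cells (5.56%). In cluster 3, led by Spink1 and Sox17, they were 43.7% of cKO and 21.4% of parental cells. Some of the parental cells at either extreme had hardly any cKO counterpart. The neural progenitor-like clusters 5 and 13 held 147 and 287 thinned parental cells, with median replication sums of 23 and 25 UMIs and 6.12% and 8.01% of cells in the low range. The neuron-like cluster 12 held 123 thinned parental cells, of which 59.3% (50.1 to 68.1) were in the low range, with a median of 3 mitotic UMIs. Each of these clusters held fewer than 20 thinned cKO cells.

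**Figure D5:**
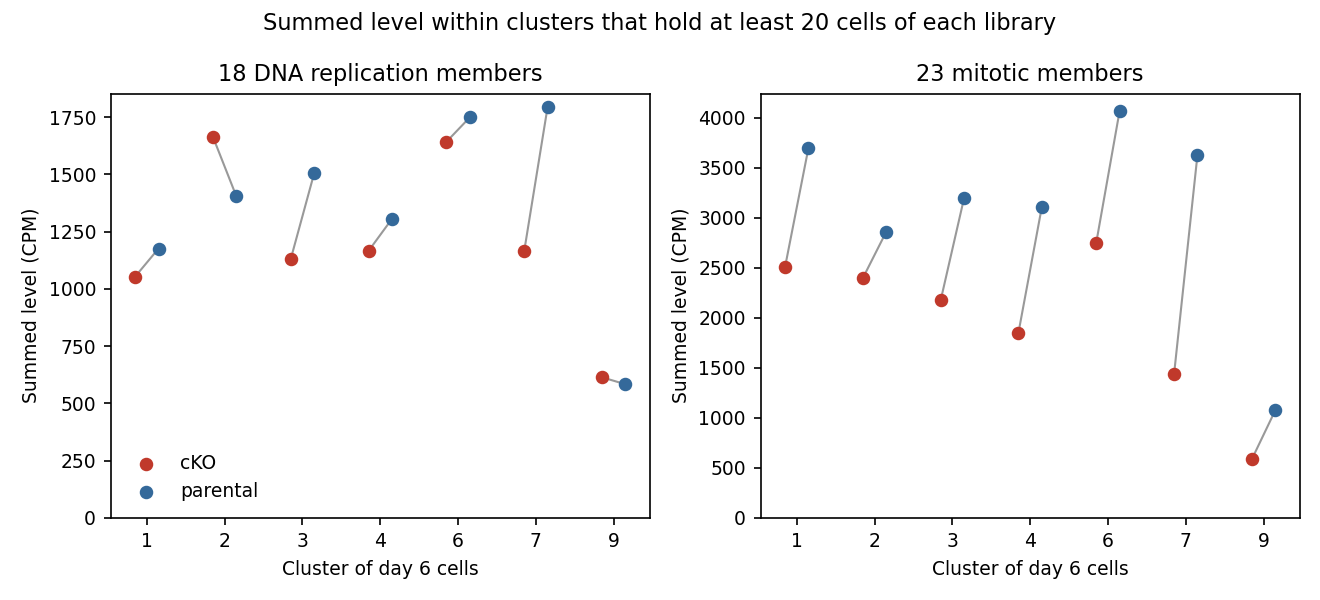
Summed level in CPM (vertical axis) of replication members (left) and mitotic members (right) in the 7 day 6 clusters with at least 20 cells of each library (horizontal axis), cKO points left of parental points and joined by a line. The mitotic level is lower in cKO in all 7, and the replication level in 5 of 7.

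In ESC and at day 3, within-cluster ratios stayed closer to 0. Over 5 ESC clusters they were −0.07 to 0.08 for replication and −0.30 to 0.02 for mitosis, and at the finer resolution the lowest mitotic value was −0.54. Over 7 day 3 clusters they were −0.34 to 0.08 for replication and −0.49 to 0.30 for mitosis. Their replication median was −0.002, and 0.018 at the finer resolution, where the day 3 sums of whole libraries gave −0.22. Outside these 7, cluster 6 made up 30.8% of the parental day 3 library but only 1 cell of the cKO one. Its parental replication level of 2899 CPM was the highest among parental day 3 clusters. The part of such cells in the day 3 replication difference was not tested. The lowest mitotic value at day 3 came from cluster 4, led by Lgals3, Prph and Ddit3, with 1592 CPM in 138 cKO cells and 2232 CPM in 114 parental cells. Of its thinned cells, 49.3% of cKO and 29.7% of parental cells held at most 5 mitotic UMIs, so this cluster held 66 of the 77 such cKO cells and 30 of the 46 such parental cells of day 3.

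The inhibitor genes were set beside the low cells last. In day 6 cKO cells Cdkn1a measured 413 CPM in cells with at most 5 mitotic UMIs and 353 CPM in the others. In parental cells it measured 234 CPM in the low cells and 126 CPM in the others. Cdkn1c had 176 CPM in the low cKO cells and 78.7 CPM in the other cKO cells, against 969.7 CPM in the low parental cells and 178 CPM in the other parental cells. The low cells were spread over the clusters in different proportions in each genotype. The neuron-like cluster 12, in which Cdkn1c measured 1965 CPM in parental cells, held 73 of the 215 low parental cells. Cluster 1 held 243 of the 439 low cKO cells and 38 of the low parental cells. Cluster 3 held 59 low cKO and 22 low parental cells. In cluster 1 Cdkn1c measured 80.9 CPM in cKO and 87.3 CPM in parental cells. In the other clusters with at least 20 cells of each library (2, 3, 4, 6, 7 and 9) Cdkn1c was higher in cKO cells. It measured 136 CPM in cKO and 44.0 CPM in parental cells in cluster 3. In cluster 7 it measured 324 CPM in cKO and 78.6 CPM in parental cells, and in cluster 6 54.4 CPM and 48.6 CPM. The part of these inhibitors in the members' levels was not tested.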

How the data were processed

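The deposited files hold UMI counts per gene and barcode, which the authors made with Cell Ranger 3.1.0 per the file headers, on mm10 per the submitters' processing notes; strand use in counting is not given in the sources used here. A barcode counted as a cell if UMIs of 1000 or more genes were seen and mitochondrial UMIs made up no more than 10%, without doublet removal. Scrublet marked 38 cells, 1 of them at day 6, too few for a working doublet call there, and doublets were left out only as an alternative.

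UMIs were summed over the cells of each library in Python 3.11.15 (numpy 2.4.6, pandas 2.3.3, scipy 1.17.1) and divided by the library total. A gene was compared at 5 CPM or more in the higher library and called at 1.5-fold or more. Levels carry exact Poisson intervals, ratios conditional binomial ones and shares exact binomial (Clopper-Pearson) ones, all at 95% and for counting error only; a floor of 3 counts was set for genes at 0, which no member reached. Cells of each stage were clustered with scanpy 1.11.5 (Leiden, resolution 0.8, 2000 variable genes, 30 components, 15 neighbours) without the members and pathway genes, 223 genes in all. Cells were thinned to 10000 UMIs for values per cell. The ratio and interval code was tested on simulated counts. Clusters were named from marker lists, and clusters with fewer than 3 markers or with leading genes of another type stayed unnamed.

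Alternatives were TMM factors (edgeR 4.0.16, R 4.3.3), median-of-ratios factors, equal weight per cell, stricter barcodes (2000 genes, 5% mitochondrial UMIs), doublets left out, a minimum of 20 CPM or none, subtraction of each chromosome's median, fibroblast-like clusters left out, a 2-fold limit, thinning to 5000 or 20000 UMIs, and resolution 1.2. Members, pathway lists and markers were chosen with earlier results of these data known. The limit of 5 UMIs and the minimum of 20 cells per cluster were chosen after the data were seen. By rule, ratios were given for the 4 highest and 4 lowest members of each list per genotype comparison and for every member called, for up to 2 genes of a pathway list with the largest absolute ratio, and for the 8 genes most correlated with each sum. Promoters were printed for the 3 members of each list with the largest day 6 difference that had an entry in the RefSeq table, which matched 36 of the 41 members. Other members' ratios, Cdkn2a and Cdkn1c were added after their values were seen.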

Additional observations from a re-analysis of the deposited data

Results flagged for a closer look

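The step from day 3 to day 6 had opposite signs in the 2 genotypes for the mitotic list. The median log2 ratio of that list was −0.42 in cKO cells and 0.16 in parental cells, where all genes had 0.26 and 0.22. The difference was not tested, and with TMM factors the list's median in parental cells was below 0. Aurkb had a ratio of −0.42 in cKO cells and 0.76 in parental cells over that step, and 0.53 in parental cells with TMM factors. Cenpf had a ratio of −0.90 in cKO cells and 0.12 in parental cells, but with TMM factors its ratio in parental cells was −0.10, and −0.028 after subtraction of its chromosome's median, so its sign there turned. Neither difference was tested, as each rests on 4 libraries.

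Members were also present in the barcodes left out as cells, at a summed level of 879 CPM for replication and 1669.7 CPM for mitosis over all 6 libraries. By library the mitotic sum in those barcodes was 1185 CPM to 2451 CPM, below the level of the kept cells in all 6.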

How the results depend on the processing

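No paired analysis was possible because each group held 1 library, so the groups shared no more than 1 replicate number, and no result comes from a test. Of the alternative values of the list medians and counts, 221 stayed within the set bounds and 29 moved. With stricter barcodes, which left 86 cKO ESC, the ESC genotype medians were −0.24 for replication and −0.28 for mitosis, with 1 and 6 members called. There the cKO step from ESC to day 3 had a mitotic median of 0.49 and 8 called. The same filter called 962 genes higher and 619 lower of 9165 in the ESC genotype comparison. In that cKO step it called 1819 genes higher and 2258 lower of 9474. In ESC, 1 replication member was called with fibroblast-like clusters left out and 1 with chromosome medians subtracted. At day 3 the mitotic genotype median was 0.14 with TMM and 0.14 with median-of-ratios factors. From day 3 to day 6 the mitotic median in cKO cells was −0.69 with TMM and −0.68 with median-of-ratios factors, with 14 called under either. In parental cells it was −0.067 with TMM factors, −0.075 with median-of-ratios factors and −0.057 with chromosome medians subtracted, with 1 called under each. At a 2-fold limit, day 6 genotype calls were 1 for replication and 3 for mitosis. The cKO step from ESC to day 3 had 1 and 0, that from day 3 to day 6 had 0 mitotic calls, the parental step from ESC to day 3 had 0 and 0, and that from day 3 to day 6 had 1 and 0. Over all genes, 567 were 2-fold higher and 680 lower of 10065 at day 6. From ESC to day 3 they were 826 and 1242 of 9458 in cKO cells, and 722 and 1023 of 9555 in parental cells. From day 3 to day 6 they were 2266 and 759 of 9835 in cKO cells, and 1844 and 544 of 10058 in parental cells. The cause of the shifts between settings was not tested. Values of single members and cells stayed within bounds in 474 cases and moved in 347, with 0 reversed among called members at day 6. Depth limits the single members little, since the lowest held 837 UMIs in a library, but 1 library per group leaves the spread between cultures unknown.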
